A study of Mus musculus with 6 samples.

Results

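FMRP, whose loss causes fragile X syndrome, binds RNA and works in complexes with a small set of other proteins. The mRNAs of 10 genes of this kind were followed here: Fmr1 itself, its paralogs Fxr1 and Fxr2, and the partner genes Cyfip1, Cyfip2, Nufip1, Nufip2, Caprin1, G3bp1 and G3bp2. They were taken by gene name from a table of 55367 genes, and all 10 were found and had enough counts to be tested among 16976 tested genes. The libraries came from cerebral cortex of C57BL/6J mice at postnatal day 1, dissociated and kept as cultured neurons for 2 days in vitro, with 3 libraries from wild-type (WT) pups and 3 from Fmr1-KO pups. The labels do not name the Fmr1-KO allele, the sex of the pups or how many pups each culture held, and the study's methods describe removal of ACSA2+ astrocytes and myelin with microbeads before plating. The study describes the triplicates as derived independently, but the labels do not tie libraries to cultures or litters, so P values measure the spread between these libraries. The question was whether the genes around FMRP changed at the RNA level where FMRP is lacking.

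FMRP and the paralogs FXR1 and FXR2 bind RNA through KH domains, associate with polyribosomes and with each other, and FMRP restrains the translation of many neuronal mRNAs. CYFIP1 links FMRP to the cap-binding protein eIF4E, and both CYFIP proteins are also subunits of the WAVE complex, which drives branched actin assembly downstream of the GTPase RAC1. NUFIP1 is a nuclear protein that helps to assemble box C/D small nucleolar ribonucleoproteins (snoRNPs), and NUFIP2 is an FMRP-binding protein. CAPRIN1 binds G3BP1 and G3BP2, the scaffold proteins of stress granules, and travels with FMRP in neuronal RNA granules.

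The paralogs resemble each other, so their coding sequences were compared to see how far reads of 100 bases could tell them apart. Coding sequences of Cyfip1 and Cyfip2 had 77.8% identical bases over 3756 aligned positions, the highest identity among these pairs. Identity was 70.9% for Fmr1 and Fxr1, 64.6% for Fmr1 and Fxr2, 69.0% for Fxr1 and Fxr2, and 69.1% for G3bp1 and G3bp2. The stretches around the longest exactly shared run are shown for the pairs whose counts are compared within libraries. Capitals mark the shared run, and 15 coding bases are added on each side where the coding sequence has them.
Cyfip1: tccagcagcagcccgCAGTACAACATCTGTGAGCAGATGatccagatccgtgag
Cyfip2: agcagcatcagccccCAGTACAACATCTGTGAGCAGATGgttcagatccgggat
G3bp1: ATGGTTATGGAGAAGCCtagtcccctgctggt
G3bp2: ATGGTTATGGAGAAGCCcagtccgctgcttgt
Fxr1: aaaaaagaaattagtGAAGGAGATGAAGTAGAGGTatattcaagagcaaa
Fxr2: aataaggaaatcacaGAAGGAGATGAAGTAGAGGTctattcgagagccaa

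The Cyfip1 stretch lies at chr7:55887838-55887891 (plus strand) and the Cyfip2 stretch at chr11:46270600-46270653 (minus strand), both in 1 coding exon (GRCm38). The G3bp1 and G3bp2 stretches hold the start codons, at chr11:55485644-55485675 (plus strand) and chr5:92073223-92073254 (minus strand). The Fxr1 and Fxr2 stretches each cross an intron, at chr3:34041124-34046048 and chr11:69640295-69641298 (both plus strand). The longest shared run was 24 bases for the Cyfip pair, 17 for the G3bp pair and 20 for Fxr1 and Fxr2, all far shorter than a read. For 9 of the 10 genes, no window of 100 bases in 1 annotated transcript of the gene occurred exactly in an annotated transcript of another gene. The exception was G3bp1, in which 162 of 6604 windows (2.45%) also occurred in Gm5913, a separately listed gene that held between 1 and 7 counts per library. Reads with mismatches, and exons outside the transcript searched, were not examined. For Fxr1 that transcript held 2459 bases, against 6553 in all annotated exons. It held 3026 against 8659 for G3bp2, 2318 against 5792 for Nufip2 and 4199 against 8966 for Fmr1.

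Among the 10 genes, 2 were lower and 1 was higher in Fmr1-KO at an adjusted P under 0.05 by edgeR. Cyfip2 fell to 71.1% of its WT level, G3bp1 rose to 112.4%, and Fmr1, the targeted gene, fell to 50.6%. The other 7 genes were not called, and their log2 fold-changes ran from -0.0760 (Cyfip1) to 0.0847 (Fxr1). For comparison, 42.6% of all tested genes were called, 21.9% lower and 20.7% higher. Fmr1-KO and WT libraries did not overlap for 4 of the 10 genes, namely Fmr1, Cyfip2, G3bp1 and G3bp2, while 51.7% of all tested genes had no overlap. The median log2 fold-change of the 10 genes was 0.03, and that of all tested genes was 0.01. Without Fmr1, 7 of the 9 remaining genes had a fold change under 0.1 in size on the log2 scale, a limit chosen after the values were seen, against 35.9% of all tested genes and 48.8% of those averaging 25 CPM or more. CPM is the count of a gene scaled to a common library size, with TMM factors. All 10 genes averaged more than 25 CPM, and 51.6% of tested genes averaging 25 CPM or more were called.

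**Figure D1:**
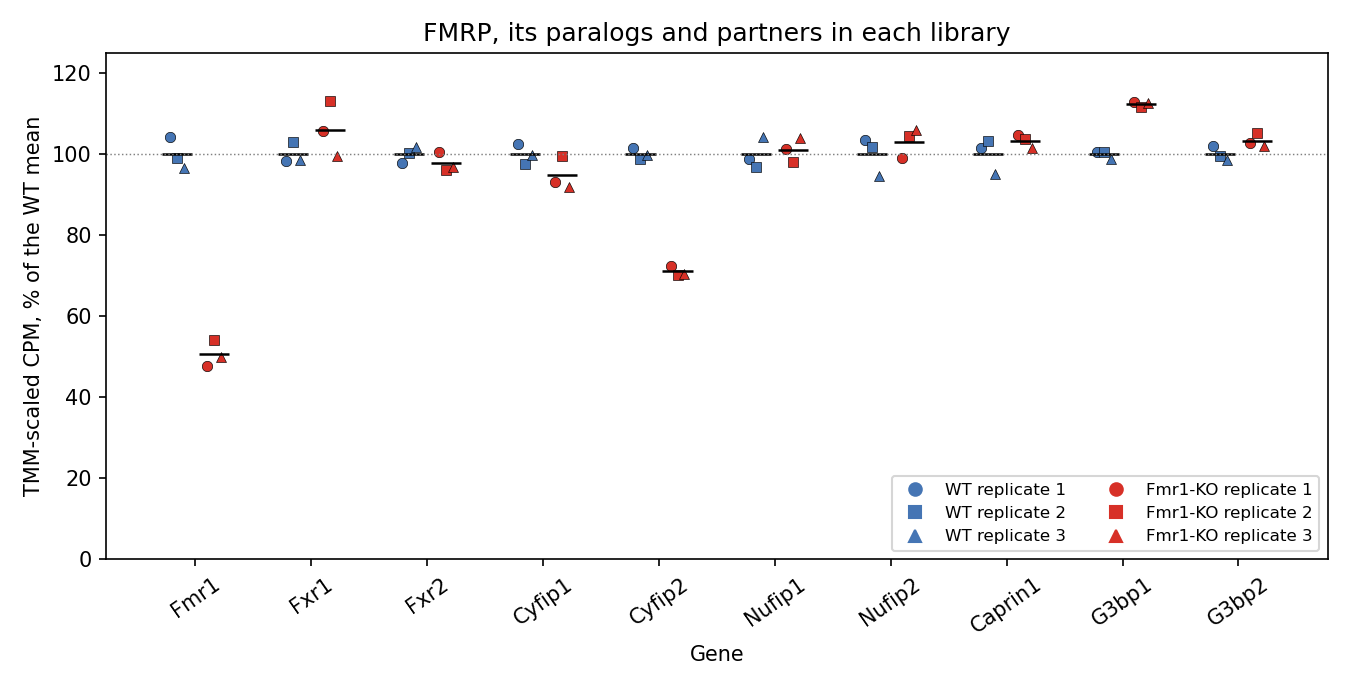
Level of each gene in each library as a percentage of its WT mean (y axis, TMM-scaled CPM), with WT in blue, Fmr1-KO in red, symbols for replicate numbers and a black line at each mean. The Fmr1-KO libraries of Fmr1 and Cyfip2 lie far below 100, those of G3bp1 lie above it near 112.4, and the other genes stay close to it.

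The libraries held 30348556 to 35126207 counts, and 2.51% to 2.67% of these were mitochondrial in every library, with no separation of the genotypes. Markers of cell types differed between the genotypes. Of 11 neuronal markers 9 were lower and 2 higher, and their summed level was 4942 to 5081 CPM in WT and 4302 to 4501 CPM in Fmr1-KO. All 8 markers of proliferating cells were higher, with sums of 478.7 to 518.2 and 830.6 to 888.6 CPM, and 4 of 8 neural progenitor markers were higher (2381 to 2394 and 2690 to 2760 CPM). Lower sums were found for the oligodendrocyte lineage, with 9 of 9 markers lower (1934 to 2102 and 1099 to 1186 CPM), and for microglia, with 8 of 9 lower (206.9 to 228.4 and 116.5 to 132.2 CPM). Astrocyte markers summed to 5736 to 5852 CPM in WT and 5089 to 5490 CPM in Fmr1-KO, with 5 of 9 lower and 2 higher. Endothelial and mural markers summed to 77.3 to 86.0 and 94.8 to 101 CPM, with 3 of 6 tested markers higher (Kdr, Pdgfrb and Flt1) and 2 lower (Rgs5 and Cdh5). Erythroid markers stayed under 2.46 CPM in sum in every library. Neuronal markers were thus abundant in all libraries, which the labels call cortical neurons. The astrocyte markers were abundant in sum too, with Gfap at 2184 to 2724 CPM, although the methods include astrocyte removal. None of the tested markers was at 0 in every library. In bulk RNA, fewer cells of a type and less RNA per cell cannot be told apart.

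The FMR1 family was examined first. Fmr1 (chrX:68678541-68717963, plus strand) was at 118.3, 112.2 and 109.6 CPM in WT replicates 1, 2 and 3, and at 54.2, 61.4 and 56.7 CPM in Fmr1-KO replicates 1, 2 and 3. Every Fmr1-KO library lay below every WT library, and edgeR gave a log2 fold-change of -0.98 (SE 0.04, adjusted P 2.25e-13). The reads that remain are exon counts of the whole gene, which do not show whether an intact mRNA was made.

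Fxr1 (chr3:34019943-34070322, plus strand) encodes the paralog FXR1, which is also abundant in muscle. It was at 109.2, 114.5 and 109.5 CPM in WT and at 117.3, 125.7 and 110.6 CPM in Fmr1-KO. The groups overlapped, because Fmr1-KO replicate 3 lay below WT replicate 2, and Fmr1-KO replicate 2 stood above the others. Fxr1 was not called by edgeR, with a log2 fold-change of 0.08 (adjusted P 0.101) and a 95% interval from 0.000167 to 0.17, which reaches a rise of 12.4%. In edgeR fits that left out a library, the value was 0.13 without Fmr1-KO replicate 3, where it passed (adjusted P 0.0166). It was 0.04 without Fmr1-KO replicate 2.

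Fxr2 (chr11:69632990-69653297, plus strand) encodes FXR2, the other autosomal paralog. Its level was 114.0, 116.8 and 118.6 CPM in WT and 117.1, 111.8 and 112.9 CPM in Fmr1-KO, with overlapping groups. By edgeR its log2 fold-change was -0.03 (adjusted P 0.486), and the 95% interval ran from a change of -6.75% to one of 2.69%.

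Levels of different genes were set side by side only per length, as CPM per kb of all annotated exons of the gene. On this scale the WT level was 12.6 ± 0.50 for Fmr1, 17.0 ± 0.45 for Fxr1 and 30.9 ± 0.62 for Fxr2 (SD, n = 3). In Fmr1-KO the levels were 6.40 ± 0.41, 18.0 ± 1.15 and 30.3 ± 0.74 CPM per kb. Fxr1 and Fxr2 together came to 47.9 ± 0.82 CPM per kb in WT and 48.2 ± 1.197 CPM per kb in Fmr1-KO. Single libraries ran from 46.9 to 48.5 in WT and from 46.9 to 49.0 in Fmr1-KO, so the sums overlapped. The sum of all 3 genes went from 60.5 ± 0.44 to 54.6 ± 1.31 CPM per kb, and the share of Fmr1 in it from 20.9% ± 0.92 to 11.7% ± 0.67. The shares depend on the length used: with the longest coding transcript of each gene they were 25.2% ± 1.03 and 14.3% ± 0.73. The order of Fxr1 and Fxr2 depends on it too. With that length Fxr1 and Fxr2 were at 36.9 ± 0.99 and 39.5 ± 0.79 CPM per kb in WT, and at 39.1 ± 2.51 and 38.6 ± 0.94 CPM per kb in Fmr1-KO, while Fmr1 was the lowest of the family under either length. Fxr1 and Fxr2 have different lengths, but their raw counts were nearly equal, with an Fxr1/Fxr2 count ratio of 0.958, 0.981 and 0.923 in WT and 1.002, 1.12 and 0.979 in Fmr1-KO. The mean log2 ratio was 0.12 higher in Fmr1-KO, a difference that the libraries did not separate (exact permutation test, 2-sided, P = 0.2, adjusted P 0.2 over 3 ratios).

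**Figure D2:**
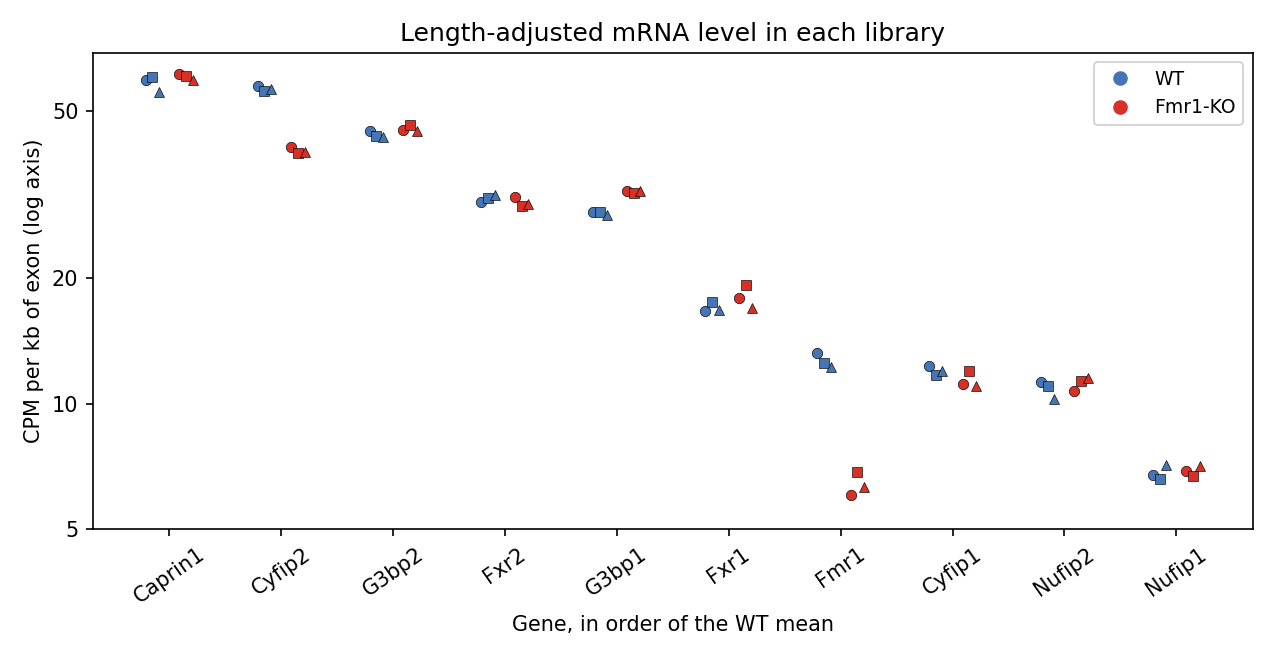
Length-adjusted level of each gene in each library (CPM per kb of exon, log axis), WT in blue and Fmr1-KO in red, ordered by the WT mean, with circles, squares and triangles for replicates 1, 2 and 3. Caprin1 stands highest and Nufip1 lowest in WT, and Fmr1 moves from the seventh place in WT to the lowest mean in Fmr1-KO, where it overlaps Nufip1.

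Of the CYFIP genes, Cyfip2 fell and Cyfip1 was not called. Cyfip2 (chr11:46193850-46312859, minus strand) encodes the CYFIP protein that predominates in brain, and it was at 407.8, 397.1 and 400.9 CPM in WT. In Fmr1-KO it was at 291.6, 282.4 and 283.5 CPM. Every Fmr1-KO library was more than 100 CPM below every WT library, and within a genotype the values differed by a few percent, with a coefficient of variation of 1.35% in WT and 1.77% in Fmr1-KO. This is a change of -28.9%, or -0.49 on the log2 scale (SE 0.03, 95% interval -0.55 to -0.43, adjusted P 1.59e-11 by edgeR). The size of this change exceeded that of 85.8% of all tested genes. It was called in all 13 alternatives run, with log2 fold-changes from -0.51 to -0.46.

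Cyfip1 (chr7:55841745-55932602, plus strand) encodes the more widely expressed CYFIP protein. Its level was 146.8, 139.6 and 142.8 CPM in WT and 133.3, 142.5 and 131.6 CPM in Fmr1-KO. Replicates 1 and 3 of Fmr1-KO lay below all WT libraries, while replicate 2 lay among them. Cyfip1 did not pass the threshold of edgeR (log2 fold-change -0.08, 95% interval -0.15 to -0.00215, adjusted P 0.0918). Leaving out Fmr1-KO replicate 2 gave -0.11, which passed (edgeR, adjusted P 0.0124).

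The difference between both CYFIP genes was then tested within libraries, where scaling between libraries plays no part. The Cyfip1/Cyfip2 count ratio was 0.360, 0.352 and 0.356 in WT and 0.457, 0.505 and 0.464 in Fmr1-KO. All 3 Fmr1-KO ratios were above all 3 WT ratios, and the mean log2 ratio was 0.42 higher in Fmr1-KO. The exact permutation test, 2-sided, gave P = 0.1, the smallest that 3 against 3 libraries can give (adjusted P 0.15 over 3 ratios). Per kb of exon, Cyfip2 exceeded Cyfip1 by 4.72 ± 0.06-fold in WT and 3.54 ± 0.19-fold in Fmr1-KO (SD, n = 3). These folds are 2.72 ± 0.03 and 2.04 ± 0.11 with the longest coding transcripts as lengths. Cyfip2 therefore had the higher level of the pair in both genotypes under either length.

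The other subunits of the WAVE complex were counted in the same fit. Of 9 such genes, 6 were lower and 0 were higher by edgeR, while 21.9% of all tested genes were lower and 20.7% higher. The median log2 fold-change was -0.27 against 0.01 for all tested genes. At an unadjusted P under 0.05 also 0 were higher. DESeq2 called 6 lower and 0 higher, and the count of 6 lower genes held in all 13 alternatives. The lowest was Wasf1, which encodes the WAVE protein most abundant in brain and went from 145.4 to 98.9 CPM (edgeR, log2 fold-change -0.56, adjusted P 4.12e-11). Nckap1l, the subunit of blood and immune cells, was lower by 0.51 on the log2 scale, and the microglia markers fell in the same libraries, with no test of their part in it. Wasf3, Abi2, Nckap1 and Abi1 were also lower, by 0.30, 0.27, 0.15 and 0.13, whereas Wasf2, the broadly expressed WAVE protein, was not called (0.07, edgeR adjusted P 0.219). In the same libraries the neuronal markers summed to 87.4% of their WT level, with a median log2 fold-change of -0.63. Of these 11 markers 9 were lower, and 2, Dcx and Elavl4, were higher. The part of neuronal content in the changes of Cyfip2 and the WAVE genes was not tested.

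**Figure D3:**
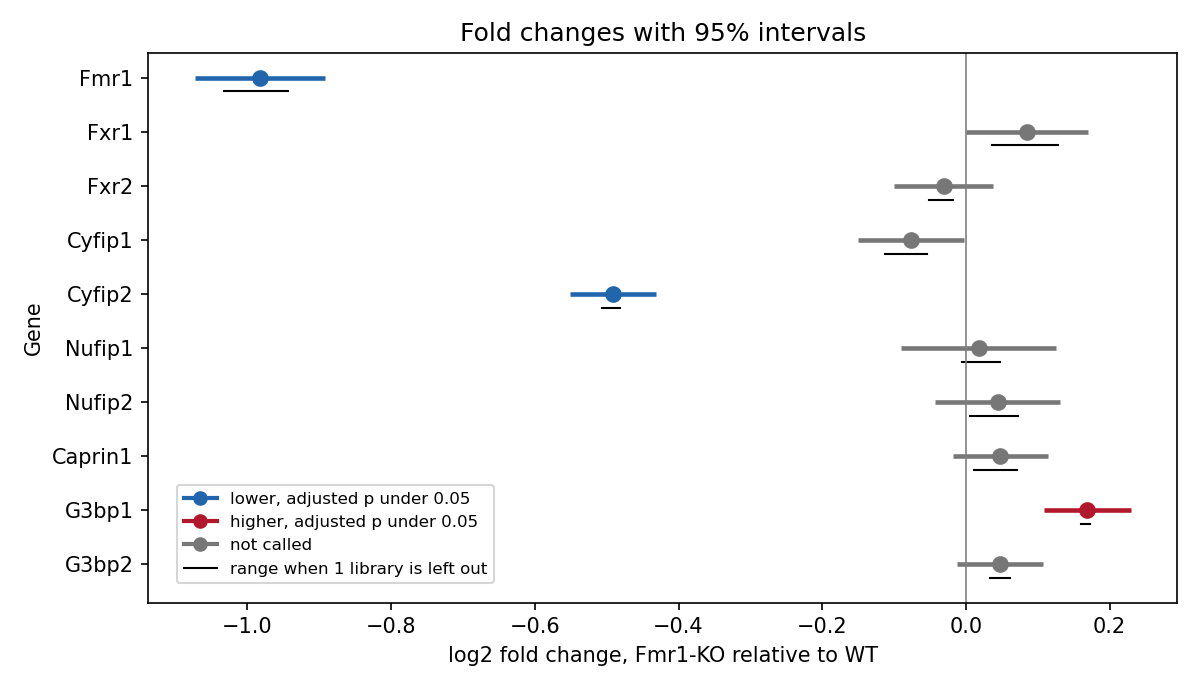
Log2 fold-change of each gene in Fmr1-KO relative to WT (x axis), with the 95% interval as a coloured bar, blue for lower, red for higher and grey for genes that were not called, and a thin black bar for the range when 1 library is left out. Fmr1, Cyfip2 and G3bp1 stand clear of 0, and the intervals of Fxr1 and Cyfip1 end close to it.

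The NUFIP genes had the lowest levels of the partners. Nufip1 (chr14:76110891-76137379, plus strand) was at 26.8, 26.3 and 28.3 CPM in WT and at 27.5, 26.6 and 28.2 CPM in Fmr1-KO, which overlapped fully. The change was 0.02 on the log2 scale (95% interval -0.09 to 0.13, edgeR adjusted P 0.815). It was the least precisely measured of the 10 genes, since its 815 to 981 counts per library alone give a counting error of about 3.32%, and such errors cover the counting of reads only. Its sign changed without WT replicate 2 and without Fmr1-KO replicate 3. Nufip2 (chr11:77686155-77741921, plus strand) was at 65.0, 63.9 and 59.5 CPM in WT and at 62.2, 65.6 and 66.5 CPM in Fmr1-KO. The highest values were in Fmr1-KO replicates 2 and 3 and the lowest in WT replicate 3, with overlap between the groups. Nufip2 was not called (edgeR, log2 fold-change 0.04, 95% interval -0.04 to 0.13, adjusted P 0.425).

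Box C/D snoRNP proteins and assembly factors, the machinery in which NUFIP1 works, included calls in both directions. Of 10 such genes, 2 were lower and 2 were higher by edgeR, with a median log2 fold-change of 0.01. This count is near the 42.6% called among all tested genes. Nop56, a core protein of these particles, had the largest decrease (114.2 to 101.7 CPM, -0.17 on the log2 scale, edgeR adjusted P 0.000835). Pih1d1, a subunit of the R2TP assembly complex, had the largest increase (29.4 to 34.3 CPM, 0.22 on the log2 scale, edgeR adjusted P 0.00141). Only 1 gene was lower without WT replicate 2, without WT replicate 3 or without Fmr1-KO replicate 3, and only 1 was higher without WT replicate 1.

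RNA granule proteins were examined next. G3bp1 (chr11:55469685-55504838, plus strand) was at 202.4, 202.6 and 199.0 CPM in WT and at 227.2, 224.9 and 226.9 CPM in Fmr1-KO. The groups did not overlap, and the values within a genotype lay closer together than counting error alone would give on average (coefficients of variation of 0.999% and 0.561% against 1.19%). G3bp1 was called higher by edgeR, at 0.17 on the log2 scale (SE 0.03, 95% interval 0.11 to 0.23, adjusted P 6.51e-05). Of all tested genes, 53.2% had a fold change of this size or smaller. G3bp1 was called in all 13 alternatives, with values from 0.16 to 0.20. Markers of proliferating cells rose in the same libraries, as given above, and their part in this change was not tested.

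G3bp2 (chr5:92052146-92083719, minus strand) encodes the second G3BP scaffold. It was at 387.4, 377.9 and 374.4 CPM in WT and at 390.3, 400.0 and 387.6 CPM in Fmr1-KO. The groups did not overlap, but by a margin of less than 1 CPM between WT replicate 1 and Fmr1-KO replicate 3. G3bp2 was not called by edgeR (log2 fold-change 0.05, adjusted P 0.197), with a 95% interval from a change of -0.852% to one of 7.72%. Scaling by library totals in place of TMM gave 0.08, which passed (edgeR, adjusted P 0.0390).

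Caprin1 (chr2:103762941-103797649, minus strand) had the most counts of all 10 genes. It was at 607.2, 617.0 and 567.6 CPM in WT and at 626.0, 619.7 and 606.4 CPM in Fmr1-KO. The lowest value was that of WT replicate 3, and Fmr1-KO replicate 3 lay below both other WT libraries. Its difference on the log2 scale was 0.05 (95% interval -0.02 to 0.11, edgeR adjusted P 0.245) and was not called. Its coefficient of variation in WT (4.37%) was far above its counting error of 0.705%.

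Within libraries, the G3bp1/G3bp2 count ratio was 0.522, 0.536 and 0.532 in WT and 0.582, 0.562 and 0.585 in Fmr1-KO. The Fmr1-KO ratios all lay above the WT ratios, and the mean log2 ratio was 0.12 higher (exact permutation test, 2-sided, P = 0.1, the smallest possible with 3 against 3 libraries, adjusted P 0.15 over 3 ratios). Per kb of exon, G3bp2 exceeded G3bp1 by 1.54 ± 0.02-fold in WT and 1.415 ± 0.03-fold in Fmr1-KO (SD, n = 3). With the longest coding transcripts as lengths, these folds were 2.99 ± 0.04 and 2.75 ± 0.06.

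**Figure D4:**
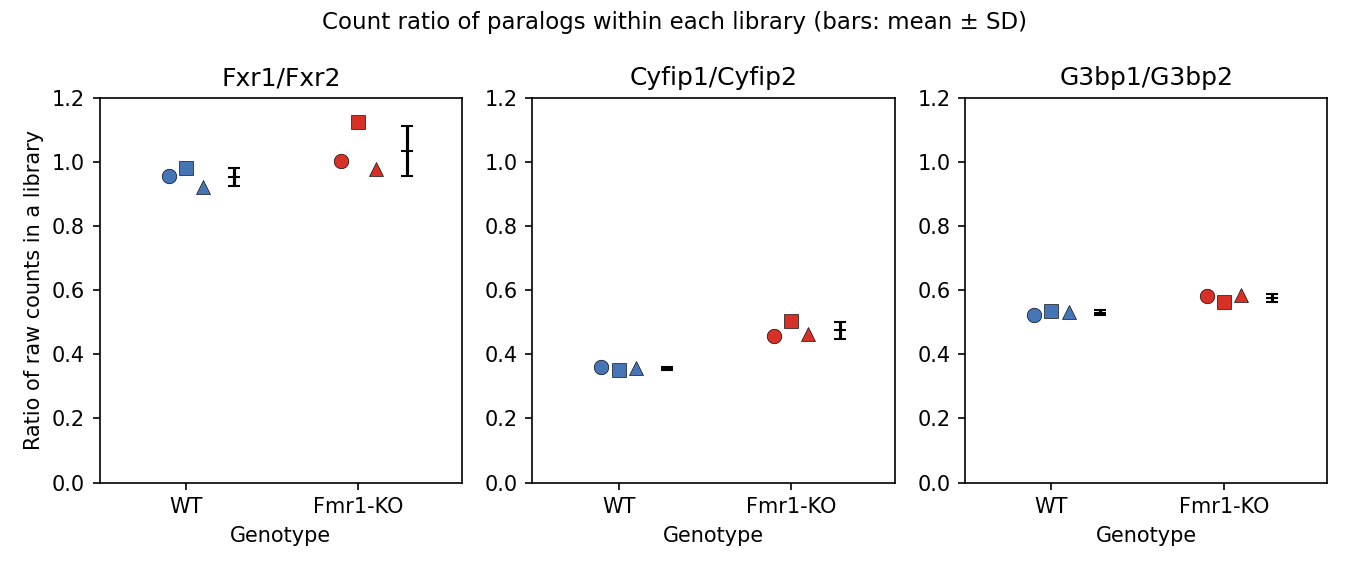
Ratio of the raw counts of paralogs in each library, for Fxr1/Fxr2, Cyfip1/Cyfip2 and G3bp1/G3bp2, with WT in blue, Fmr1-KO in red, circles, squares and triangles for replicates 1, 2 and 3, and mean ± SD in black. The genotypes do not overlap for the Cyfip and G3bp pairs, and they overlap for Fxr1/Fxr2.

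Other stress granule proteins were followed beside these genes. Of 14, 5 were higher and 2 were lower by edgeR, with a median log2 fold-change of 0.04, beside 20.7% higher and 21.9% lower among all tested genes. The total of called genes is close to the 42.6% of that background. Caprin2, the paralog of Caprin1, had the largest increase at a low level (11.4 to 14.8 CPM, 0.37 on the log2 scale, edgeR adjusted P 0.000347). The RNA-binding proteins Tia1, Ddx3x, Tial1 and Atxn2l were higher by 0.27, 0.19, 0.15 and 0.11. Atxn2 had the largest decrease (121.9 to 111.4 CPM, -0.13 on the log2 scale, edgeR adjusted P 0.00707), and the poly(A)-binding protein gene Pabpc1 was lower by 0.08. Usp10, which encodes a direct ligand of G3BP, was not called (-0.07, edgeR adjusted P 0.0880). Only 1 gene was lower without WT replicate 1 or WT replicate 3. Without Fmr1-KO replicate 3 there were 0 by edgeR (3 at an unadjusted P under 0.05), and there Atxn2 was at -0.0972 on the log2 scale (edgeR adjusted P 0.0590).

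A wider list of 22 proteins reported to associate with FMRP was called about as often as all tested genes. Here 5 were lower, 4 were higher and 13 were not called by edgeR, with a median log2 fold-change of -0.02, against 21.9% lower and 20.7% higher in the background. The largest decrease was that of Adarb1, which encodes an RNA-editing adenosine deaminase and went from 69.9 to 45.4 CPM (-0.62 on the log2 scale, edgeR adjusted P 1.50e-10). Kif3c, Ybx1, Purb and Stau2 were lower by 0.22, 0.17, 0.14 and 0.10. The largest increase was that of Igf2bp1, an mRNA-binding protein of fetal tissues, from 4.89 to 7.06 CPM (0.52 on the log2 scale, edgeR adjusted P 0.000305). Syncrip rose by 0.13, and Top3b and Tdrd3, whose products form a complex that binds FMRP, rose by 0.12 and 0.10. The Argonaute genes Ago1 and Ago2 (0.000686 and -0.05), Dicer1 (0.01) and Eif4e (-0.07) did not pass the threshold. Only 2 genes were higher by DESeq2, without WT replicate 3 or without Fmr1-KO replicate 2.

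**Figure D5:**
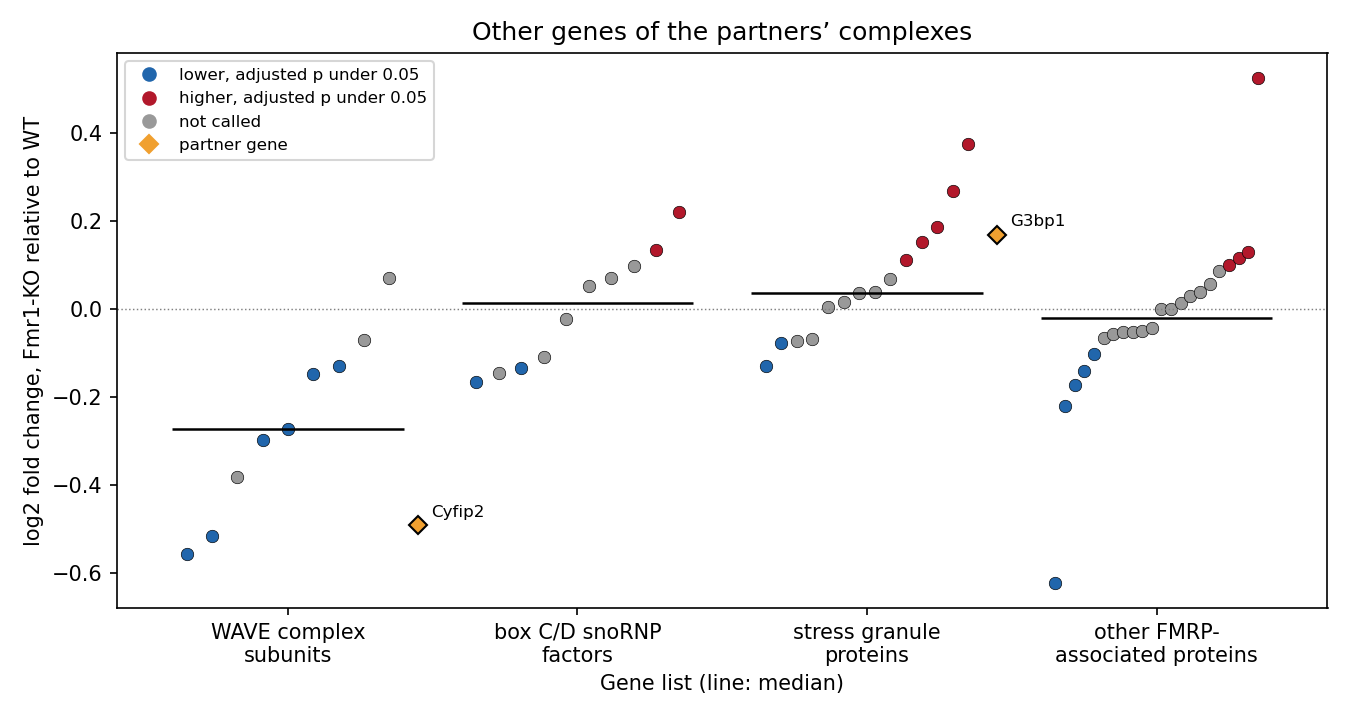
Log2 fold-change in Fmr1-KO relative to WT (y axis) of the other genes of the complexes in which the partners work, each point a gene, blue for lower, red for higher and grey for not called, a line at the median of each list and diamonds for Cyfip2 and G3bp1. WAVE complex genes lie mostly below 0 with a median of -0.27, and the medians of the other lists lie between -0.02 and 0.04.

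The order of the 10 genes by level was compared last. Per kb of exon in WT it ran from Caprin1 (58.4 ± 2.56) over Cyfip2 (56.6 ± 0.77), G3bp2 (43.9 ± 0.78), Fxr2 (30.9 ± 0.62), G3bp1 (28.5 ± 0.28), Fxr1 (17.0 ± 0.45), Fmr1 (12.6 ± 0.50), Cyfip1 (11.98 ± 0.30) and Nufip2 (10.8 ± 0.50) to Nufip1 (6.82 ± 0.26, all SD, n = 3). Neighbours whose libraries overlapped were Caprin1 and Cyfip2, and Fmr1 and Cyfip1. In Fmr1-KO, G3bp2 (45.3 ± 0.75) stood above Cyfip2 (40.2 ± 0.71), G3bp1 (32.0 ± 0.18) above Fxr2 (30.3 ± 0.74), and Fmr1 (6.40 ± 0.41) had the lowest mean. Its libraries overlapped those of Nufip1 (6.90 ± 0.20), and those of Cyfip1 and Nufip2 overlapped as well. The places in this order depend on the exon lengths of the annotation. With the longest coding transcript of each gene, chosen after the data were seen, Caprin1 and G3bp2 were first and second in both genotypes, followed by Cyfip2, and Nufip1 was last. Fmr1 was then the eighth in Fmr1-KO.

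Finally, the genes whose pattern over the 6 libraries was most like that of a member were looked up among 10762 genes averaging 10 CPM or more, by the root mean square distance between centred log2 CPM. Nearest to Cyfip2 were Myo16 (distance 0.0144, log2 fold-change -0.48) and Sgk1 (0.0192, -0.50). Nearest to G3bp1 were Ctnnb1, which encodes beta-catenin (0.00726, 0.18), and Gga2 (0.0117, 0.18). Nearest to Fmr1 were Nos1 (0.0365, -1.02) and Scn2a (0.0512, -0.996).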

How the data were processed

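Poly(A) RNA of 6 libraries was sequenced by the authors as single-end reads. They deposited raw counts per gene name, without normalization, made with STAR (2.7.6a per the labels) on GRCm38.p6 and featureCounts in reverse-stranded exon mode on GENCODE M22 or M25. Exon counts merge all isoforms of a gene. The members, gene lists and rules were chosen with earlier results of these data known. All 16976 genes kept by filterByExpr were fitted with edgeR 4.0.16 (R 4.3.3; TMM, glmQLFit, glmQLFTest, 2-sided, genotype as the only term), with Benjamini-Hochberg adjustment over all of them and calls at an adjusted P under 0.05. CPM are TMM-scaled; SE is the fold change over the square root of F, and intervals are 95%. The counting error is 1 over the square root of the count, averaged over libraries. Total counts were 30348556 to 35126207 per library. Lists are described by counts and medians only.

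Named genes were all 10 members, the largest called change in each direction of each list, and the 2 nearest patterns of Fmr1 and of the partners with the highest and lowest fold change; other genes of the lists were named after their values were seen. Coordinates, exon lengths and transcript sequences came from GENCODE M21 (GRCm38), which held 98.6% of tested names and all 10 members; the sequence search covered annotated transcripts only, in sense. Coding sequences were aligned with Biopython 1.88. Alternatives were DESeq2 1.42.0, RLE, upper-quartile, library totals, no filter, a mean of at least 10 CPM, a replicate block and leaving out each library. In simulated counts for 16976 genes of this comparison, with a mean of at least 25 CPM, 30 of 30 genes changed by 0.25 on the log2 scale were called, but only 2 of 22 changed by 0.1, and 0.125% of unchanged genes. Over all levels, 16604 tested genes were left unchanged there, whereas 42.6% of genes were called in the data. The adjusted threshold was thus stricter in the simulation, so its shares do not show how often a change of 0.1 is called in the data.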

Additional observations from a re-analysis of the deposited data

How the results depend on the processing

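Cyfip2, G3bp1 and Fmr1 were called in the same direction in all 13 alternatives. Of 220 recomputed fold changes of single genes, 213 kept direction and call, 4 were stronger, 1 was weaker and 2 reversed. With library totals alone, which shift the median of all genes by 0.0278, Fxr1 (0.11, adjusted P 0.0294 by edgeR) and G3bp2 (0.0753, adjusted P 0.0390) were also called, so that 3 of the 10 genes were higher. Leaving out each library in turn gave 1 to 2 higher genes, Fxr1 0.0362 to 0.128, Cyfip1 -0.112 to -0.0543 and Nufip1 -0.00537 to 0.0477; Nufip1 was below 0 without WT replicate 2 and, at -0.00392, without Fmr1-KO replicate 3.

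Counts in short lists moved by single genes. For box C/D snoRNP genes, 1 was lower with DESeq2, upper-quartile normalization, library totals or a mean of at least 10 CPM, and 1 to 2 were lower and 1 to 3 higher across fits that left out 1 library. For stress granule genes, 1 was lower with upper-quartile normalization or library totals, and 0 to 2 with 1 library left out. For other FMRP-associated proteins, 2 were higher with DESeq2 or no filter on low counts, and 2 to 3 with 1 library left out. The cause was not tested. Over all genes, 3212 were lower and 4207 higher with library totals, and no count differed by over 1.5 times.

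Replicate numbers did not pair the libraries, with correlations of same-numbered deviations of -0.0289, 0.0323 and -0.0147. With the replicate block 2 of the 10 genes were lower and 1 higher, and no call of a member changed. Levels per kb depended on the length taken for a gene: with the longest coding transcript, an alternative added after seeing the data, Cyfip1 in WT was at 22.2 in place of 11.98 CPM per kb and G3bp2 in WT at 89.8 in place of 43.9 CPM per kb. Below about 0.1 on the log2 scale some genes were called and others were not. Pabpc1 at -0.08 was called (edgeR adjusted P 0.0289), and Fxr1 at 0.08 was not (edgeR adjusted P 0.101).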
